A study of Mus musculus with 96 samples.

Results

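The chemokine system was described in 4 mouse tissues through 51 genes of the 19505 measured. The members were every gene whose symbol begins with Ccl or Cxcl and a number, and every gene named Ccr or Cxcr with a number only. They comprised 36 ligands and 15 receptors, read on 52 transcript clusters, of which 2 belonged to Ccl21b and were averaged.

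Chemokines are small secreted proteins that direct the migration of leukocytes, and their receptors are G protein-coupled receptors on the surface of the migrating cells. Inflammatory ligands such as Ccl2 and Cxcl1 are induced by cytokines and microbial products and attract monocytes and neutrophils. Homeostatic ligands such as Ccl19, Ccl21, Cxcl12 and Cxcl13 are made by stromal cells and place lymphocytes in lymphoid tissue. In liver, resident macrophages (Kupffer cells), endothelium and hepatocytes contribute chemokines, and in adipose tissue macrophages and stromal cells do.

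C57BL/6JOlaHsd mice, bought at 6 weeks of age, were injected subcutaneously every day for 28 days. They received vehicle (saline with DMSO and Tween), risperidone at 1 mg/kg or olanzapine at 3.5 mg/kg, and were killed 1 h after the last injection. Each group held 8 mice (4 females, 4 males), and striatum, liver, pancreas and gonadal adipose tissue were each hybridised to 24 arrays, 96 in all. Mice are named by sex and number, so that vehicle F1 is a female of the vehicle group. RNA came from whole tissue, in which fewer cells of a type and less RNA per cell cannot be told apart. Values are log2 expression after robust multi-array averaging (RMA), and each tissue was analysed alone. The reagent kit was one for striatum and liver and another for pancreas and adipose tissue.

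The mean of each tissue's identity genes was higher in all 24 arrays of that tissue than in any array of the other 3 tissues. The margin was small for the adipose genes, at 12.482 in the lowest adipose array (risperidone M5) and 12.255 in the pancreas of vehicle M1. Among pancreas arrays, the mean of the pancreas genes ran from 10.9 (olanzapine F7) to 18.1 (vehicle M19). The mean of the liver genes was 15.2 in the pancreas of risperidone F4. The array median was 7.66 to 7.74 in striatum, 6.12 to 6.29 in liver, 6.69 to 6.90 in pancreas and 7.41 to 7.65 in adipose tissue. Several members named below lay under it, among them striatal Ccr2 and Cxcl11, liver Ccl22 and Ccl12, and adipose Ccr8. Whether these were above the background of the arrays was not tested. Arrays of 1 tissue resembled each other to different degrees, and an array's median r with its fellows lay between 0.971 and 0.988 in striatum and liver, between 0.797 and 0.954 in adipose tissue, and between 0.647 and 0.847 in pancreas. In adipose tissue, 4 males carried markers of the epididymis, which lies against this fat pad (mean of the 4 measured genes, Lcn5, Lcn8, Adam7 and Spink8). The mean was 18.8 to 19.1 in risperidone M4, M5 and M23 and 15.2 in olanzapine M9, against at most 10.9 in the other 20 mice. In pancreas, the mean of 7 T cell genes was 9.42 in vehicle F20 and 8.38 in risperidone M4, against at most 7.40 in the other 22 mice. Results that rest on these mice are given with and without them, for the drug comparisons in pancreas only as counts of members. In striatum, the mean of 5 choroid plexus genes was 9.37 to 10.55 in risperidone F4, F5, F23, M23 and M24 and 9.56 in vehicle M21. It was at most 8.76 (olanzapine F26) in the other striatum arrays, and its part in the striatal results was not tested.

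No member differed between either drug and vehicle in any of the 4 tissues at an adjusted p under 0.05 (limma, treatment and sex as terms, Benjamini-Hochberg adjustment over 19505 genes). Across all genes, 0.0% passed in striatum, pancreas and adipose tissue under either drug, and in liver 0.041% (8 genes) passed under risperidone and 0.0205% (4 genes) under olanzapine. At an unadjusted p under 0.05 in the same limma fits, risperidone gave 3 members in striatum, 4 in liver, 2 in pancreas and 10 in adipose tissue. The share of all genes at that level was 5.4% in striatum, 5.4% in liver, 3.24% in pancreas and 9.03% in adipose tissue. Olanzapine gave 3, 2, 6 and 3 members in the same order, against 10.5%, 6.56%, 8.24% and 5.46% of all genes.

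**Figure D1:**
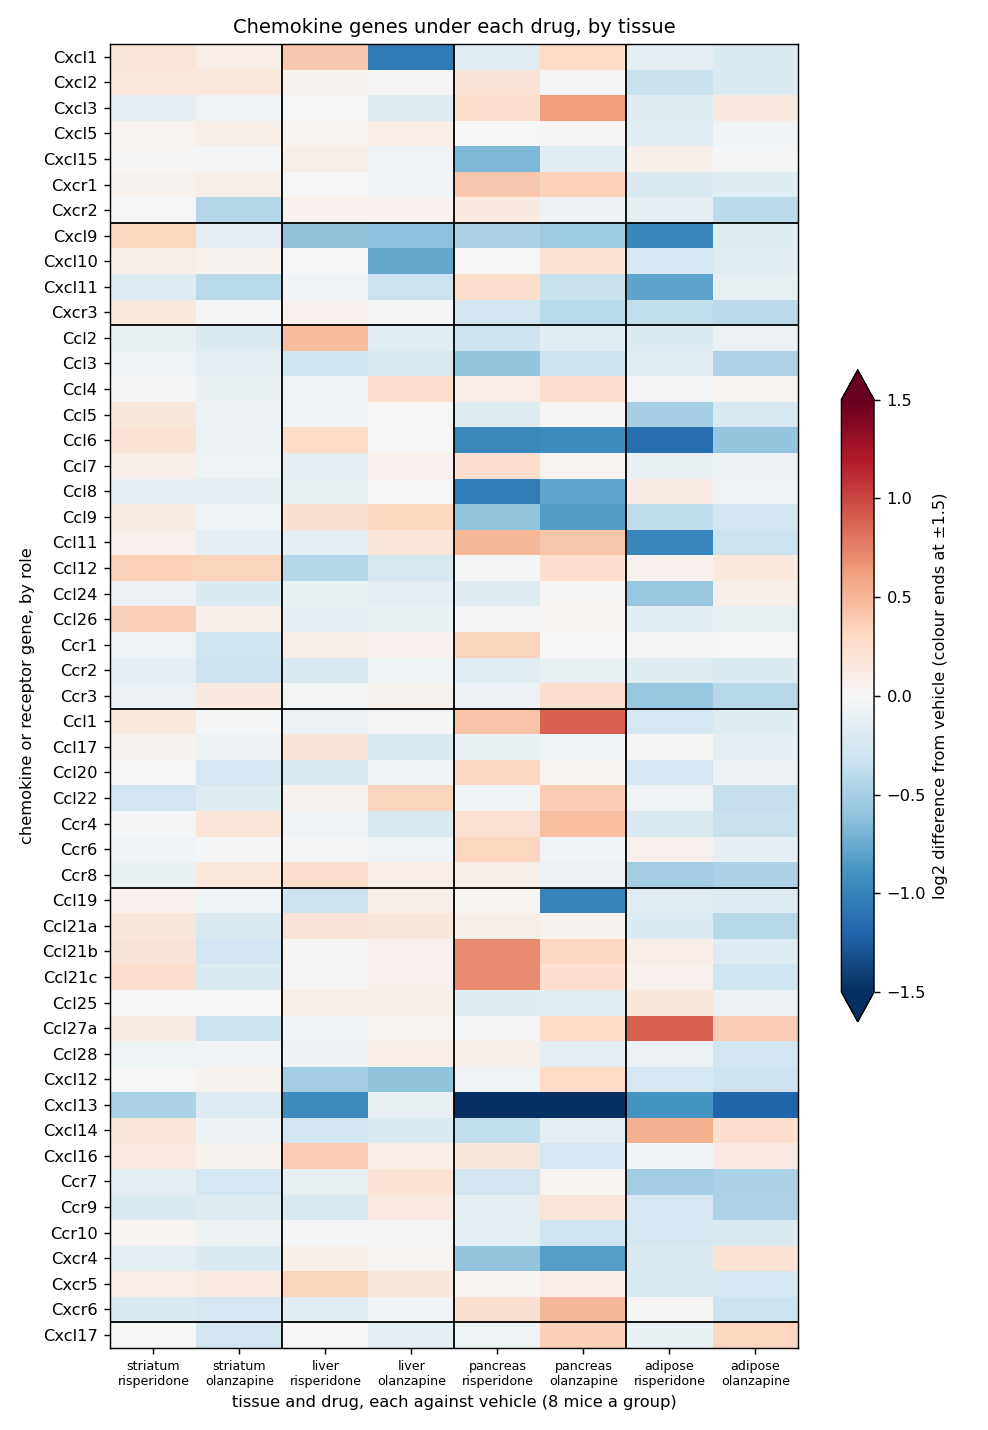
Log2 difference of each of the 51 members from vehicle, by tissue and drug, with rows grouped by role. Blue is lower and red higher than in vehicle, and none of the differences passed the adjusted test.

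In adipose tissue under risperidone, 40 of 51 members had a lower mean than vehicle and 11 a higher one, with a median log2 difference of -0.19. Over all genes, 45.1% were higher and the median was -0.04. By role, 13 of 15 inflammatory CC genes, all 4 interferon-induced genes and 6 of 7 neutrophil-attracting genes were lower, and 11 of 17 homeostatic genes were. Of the 10 members at an unadjusted p under 0.05, 8 were lower (4.0% of all genes were lower at that level) and 2 higher. The 4 members with the lowest p were Ccl11, Cxcl11, Ccl6 and Ccr8.

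Ccl11 (eotaxin, which attracts eosinophils) ranged from 10.23 to 11.67 in vehicle mice (median 11.10), from 8.69 to 10.78 under risperidone (median 10.36) and from 9.54 to 11.25 under olanzapine (median 10.76). The 3 risperidone males with epididymis markers were its lowest mice, at 8.69 in M4, 9.12 in M23 and 9.25 in M5, and olanzapine M9, the other male with these markers, was lowest in its own group. The log2 difference between risperidone and vehicle was -0.98 (SE 0.29, n = 8 a group). The limma adjusted p was 0.453 and the exact permutation p 0.00816. Here and below, the exact p tests the same difference and was not adjusted for the choice of members by their low limma p.

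Cxcl11, a ligand of Cxcr3 that RefSeq annotates as a transcribed pseudogene in the reference strain, ranged from 7.94 to 9.06 in vehicle mice and from 5.81 to 8.56 under risperidone, a log2 difference of -0.79 (SE 0.26, adjusted p = 0.453). Ccl6, a myeloid chemokine, ranged from 11.32 to 14.08 in vehicle mice and from 9.86 to 12.46 under risperidone, a difference of -1.13 (SE 0.43, adjusted p = 0.476). Ccr8, a receptor of regulatory and type 2 T cells, ranged from 6.14 to 7.17 in vehicle mice and from 5.69 to 7.29 under risperidone, a difference of -0.52 (SE 0.21, adjusted p = 0.503). For each of these 3 genes the groups overlapped, and M4, M5 and M23 were the lowest of the 8 risperidone mice.

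Without the 4 males that carried epididymis markers, 0 members were at an unadjusted p under 0.05 in limma (1.79% of all genes were), and 30 of 51 members had a higher mean under risperidone than under vehicle (51.3% of all genes had). The log2 difference was then -0.41 for Ccl11, -0.38 for Cxcl11, -0.51 for Ccl6 and -0.30 for Ccr8, each at an adjusted p of 1. That fit held 1 risperidone male, M24, which is assumed to vary like the other groups. The epididymis mean of M24, at 10.9, was the highest of the mice kept, so the fit was not free of these markers. Among females alone, in which the mean of the epididymis genes was at most 8.62, 1 member was at an unadjusted p under 0.05 in limma (1.83% of all genes were), and 30 of 51 were higher (50.8% of all genes). That member was Ccl11, at -0.63 (SE 0.24, adjusted p = 1.00 when rounded), and Ccl6 was at -0.95 (SE 0.48) in the same females. Among males alone 12 members were at that level (16.8% of all genes) and 9 of 51 were higher (41.4% of all genes). The interaction of sex and risperidone called 0 members (0.0513% of all genes), and 9 members were at an unadjusted p under 0.05 in limma, as were 13.2% of all genes. The mean of 7 macrophage genes was 7.36 to 9.00 in risperidone mice and 8.19 to 8.98 in vehicle mice, lowest in M5, M4 and M23. The part of these markers in the differences was not tested beyond leaving the mice out.

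**Figure D2:**
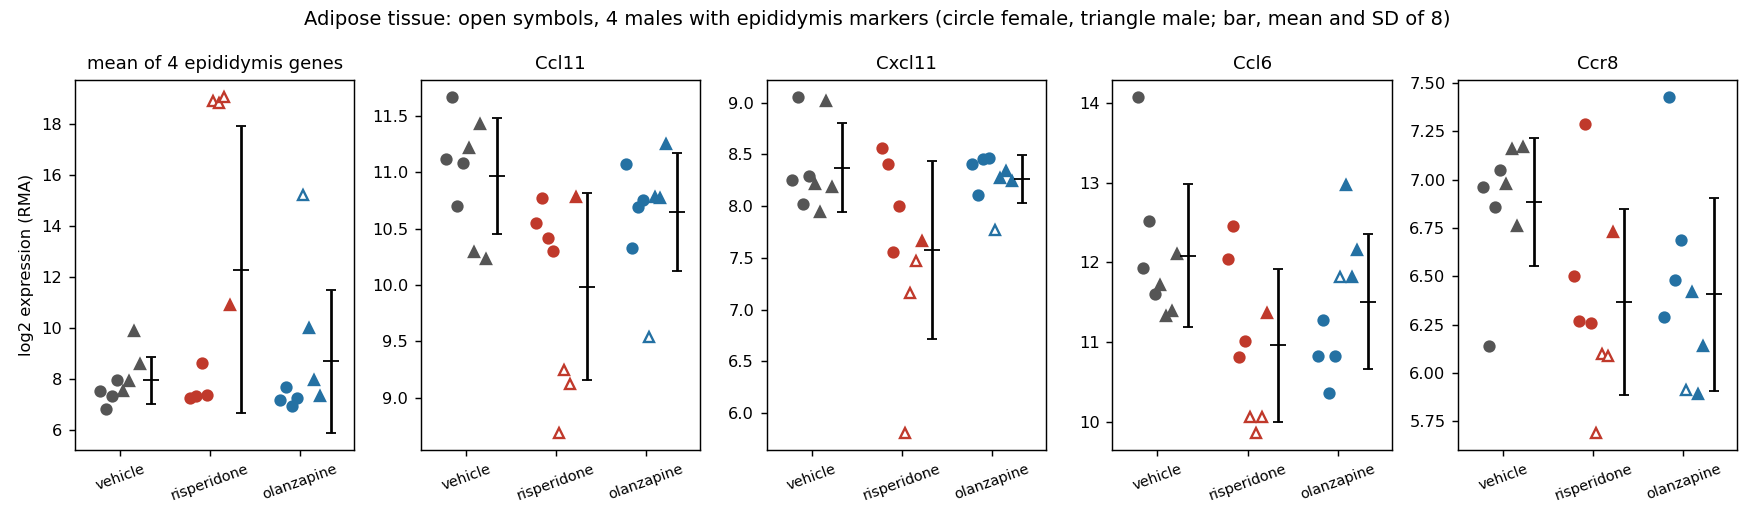
Mean of 4 epididymis genes and log2 expression of Ccl11, Cxcl11, Ccl6 and Ccr8 in adipose tissue, by treatment, with 1 symbol per mouse (bars, mean and SD of 8 mice). The 3 risperidone males with epididymis markers lie at 8.69 to 9.25 for Ccl11, below all 8 vehicle mice.

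Under olanzapine, 42 of 51 adipose members lay below vehicle, among them 14 of the 15 receptors, and 9 were higher, against 47.1% of all genes. The median was -0.19 over the members and -0.02 over all genes, and no member passed the adjusted test. Cxcl13, the B cell attractant of lymphoid follicles, ranged from 8.22 to 10.54 in vehicle mice and from 5.76 to 10.98 under olanzapine. Of the 8 olanzapine mice, 7 were below every vehicle mouse and M25, at 10.98, was above them all, so that the difference of -1.20 had an SE of 0.53 (adjusted p = 0.783, exact permutation p = 0.0661). Ccr8 differed by -0.48 (SE 0.21), Ccl22, a ligand of Ccr4, by -0.34 (SE 0.16) and Ccl3, a ligand of Ccr1, by -0.46 (SE 0.25), each at an adjusted p of 0.783. For Ccr8 the difference was -0.93 among males alone and -0.03 among females alone. Its interaction of sex and olanzapine was -0.90 (SE 0.40, limma adjusted p = 0.999). The members with the lowest p for this interaction, Ccl6 and Ccl8, went the other way. They were at 2.27 (SE 0.65) and 2.67 (SE 0.88), each at the same limma adjusted p. Without the 4 males named above, 10 of 51 members were higher, again against 47.1% of all genes.

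In liver, members were spread about vehicle, with 23 of 51 higher under risperidone (49.2% of all genes) and 25 of 51 under olanzapine (53.0% of all genes). Cxcl16, a transmembrane chemokine and scavenger receptor, had the lowest p under risperidone. It ranged from 7.86 to 9.19 in vehicle mice and from 8.19 to 9.27 under risperidone, a difference of 0.39 (SE 0.15, adjusted p = 0.733, exact permutation p = 0.0241), and 1 risperidone mouse lay above every vehicle mouse. Cxcl13 differed by -0.94 (SE 0.37, adjusted p = 0.768) and Ccl12, a monocyte attractant of mice, by -0.42 (SE 0.17, adjusted p = 0.789). Under olanzapine, Ccl22 ranged from 4.30 to 4.90 in vehicle mice and from 4.48 to 5.25 in olanzapine mice, a difference of 0.33 (SE 0.14, adjusted p = 0.674). Ccl4 differed by 0.26 (SE 0.14, adjusted p = 0.799) and Ccl3 by -0.23 (SE 0.15, adjusted p = 0.859).

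Cxcl12, the stromal ligand of Cxcr4, was among the lowest-p members under both drugs in liver, at -0.52 under risperidone (SE 0.20, adjusted p = 0.768) and -0.60 under olanzapine (SE 0.20, adjusted p = 0.597), and both comparisons share the vehicle mice. The vehicle males lay at 14.30, 14.53, 14.69 and 14.86. The risperidone males lay at 13.14, 13.45, 13.51 and 13.87 and the olanzapine males at 13.05, 13.36, 13.58 and 14.20. All 8 drug-treated males were thus below the 4 vehicle males, while the females of the 3 groups overlapped. The difference among males alone was -1.10 under risperidone (adjusted p = 0.663) and -1.05 under olanzapine (adjusted p = 0.227), and among females alone 0.07 and -0.15. The interaction of sex and drug was -1.17 for risperidone (SE 0.35, adjusted p = 0.789) and -0.90 for olanzapine (SE 0.35, adjusted p = 0.920), and neither passed the test.

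The members with the largest spread in liver were set apart by single mice of all 3 groups. Cxcl1, a neutrophil attractant, had an SD of 2.88 after removal of group means and ranged from 6.10 to 14.14 in vehicle mice (median 6.78), from 5.85 to 14.72 under risperidone and from 5.59 to 13.39 under olanzapine (median 6.14). Vehicle F1 at 14.14, risperidone F6 at 14.72 and F5 at 11.66, and olanzapine M9 at 13.39 stood above the other 20 mice, which reached 9.39.

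Vehicle F1 and risperidone F6 were also the highest livers for other ligands. Cxcl10, an interferon-induced ligand of Cxcr3 (SD 1.36), was 10.78 in F1 and 8.89 in F6, and the other 6 vehicle and risperidone females were between 4.94 and 7.19. Ccl2, the monocyte attractant (SD 1.08), was 8.88 in F1 and 10.41 in F6, with the next mouse of each group at 6.10 and 7.23. Cxcl2, a neutrophil attractant named here after its values were seen, was 9.51 in F1 and 7.74 in F6 and at most 5.85 in the other 22 mice. Olanzapine M9, high for Cxcl1, was at 5.24 for Cxcl10 and 5.37 for Cxcl2, inside the range of the other olanzapine mice. The mean of 5 neutrophil genes was 7.81 in F6, 7.12 in M9, 6.69 in F1 and 6.27 in F5, against at most 6.31 in the other 20 livers, and its part in these levels was not tested.

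**Figure D3:**
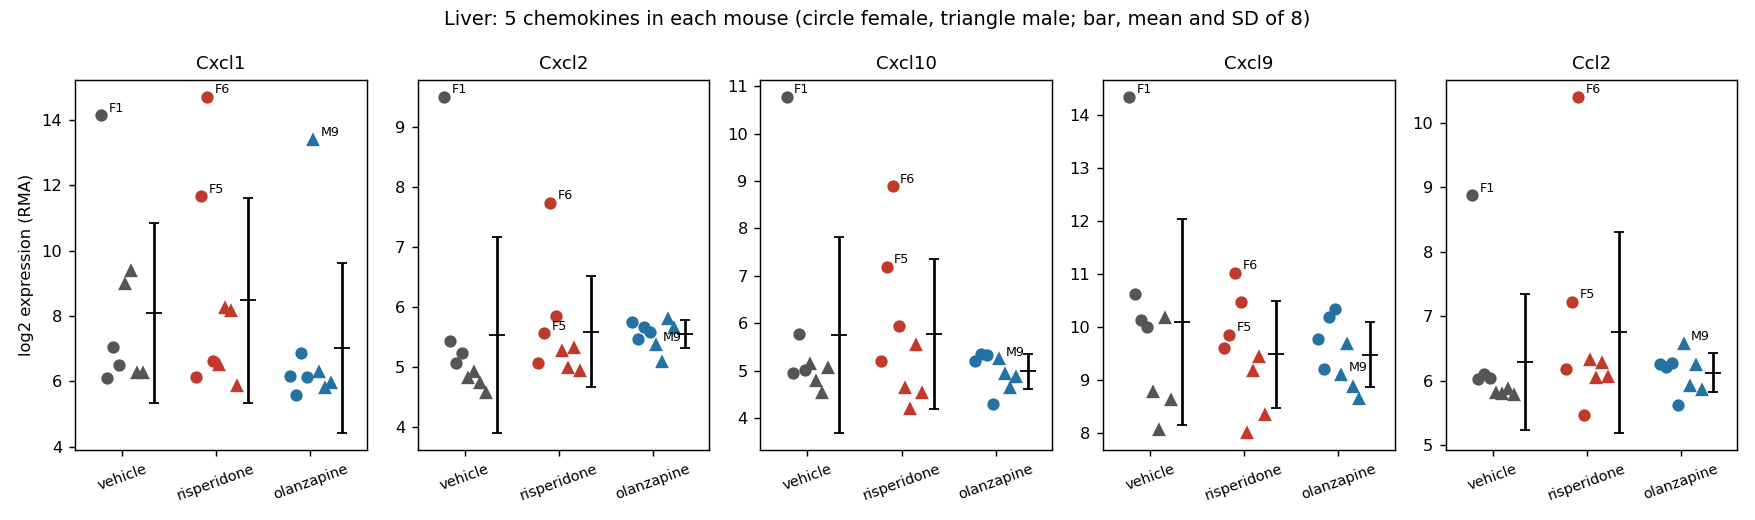
Log2 expression of Cxcl1, Cxcl2, Cxcl10, Cxcl9 and Ccl2 in the liver of each mouse, by treatment (bars, mean and SD of 8 mice). Vehicle F1 and risperidone F6 are the highest mice of their groups for all 5 genes, and olanzapine M9, at 13.39, stands far above its group for Cxcl1.

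The promoters of 4 CXC ligands that were high in these livers are shown with their motif matches. Ccl2, a CC ligand that was also high in vehicle F1 and risperidone F6, is not shown. Each runs from 250 bases before to 50 bases after the transcription start, is taken from RefSeq (GRCm38.p6) and is written 5′ to 3′ on the gene's own strand. Capitals mark matches, on either strand, to the NF-κB consensus or to the interferon-stimulated response element. The windows are chr5:90890995-90891294 (plus strand) for Cxcl1, chr5:90903649-90903948 (plus) for Cxcl2, chr5:92348840-92349139 (minus) for Cxcl10 and chr5:92328030-92328329 (minus) for Cxcl9.
Cxcl1: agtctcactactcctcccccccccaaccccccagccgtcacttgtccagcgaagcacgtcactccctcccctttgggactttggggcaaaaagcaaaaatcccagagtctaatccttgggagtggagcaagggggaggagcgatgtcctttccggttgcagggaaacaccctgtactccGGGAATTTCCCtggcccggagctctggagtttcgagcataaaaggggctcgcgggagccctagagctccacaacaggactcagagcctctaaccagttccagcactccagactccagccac
Cxcl2: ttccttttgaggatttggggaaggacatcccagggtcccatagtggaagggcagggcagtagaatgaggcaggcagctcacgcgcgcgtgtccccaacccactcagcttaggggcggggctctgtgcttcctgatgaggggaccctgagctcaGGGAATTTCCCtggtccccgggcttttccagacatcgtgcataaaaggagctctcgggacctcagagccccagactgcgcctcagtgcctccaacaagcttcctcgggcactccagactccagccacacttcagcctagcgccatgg
Cxcl10: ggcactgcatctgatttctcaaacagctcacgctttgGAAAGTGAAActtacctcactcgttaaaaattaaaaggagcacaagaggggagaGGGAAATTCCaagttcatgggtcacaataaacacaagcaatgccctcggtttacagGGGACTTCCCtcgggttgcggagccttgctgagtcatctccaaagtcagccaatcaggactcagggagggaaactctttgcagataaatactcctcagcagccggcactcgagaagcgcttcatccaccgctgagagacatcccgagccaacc
Cxcl9: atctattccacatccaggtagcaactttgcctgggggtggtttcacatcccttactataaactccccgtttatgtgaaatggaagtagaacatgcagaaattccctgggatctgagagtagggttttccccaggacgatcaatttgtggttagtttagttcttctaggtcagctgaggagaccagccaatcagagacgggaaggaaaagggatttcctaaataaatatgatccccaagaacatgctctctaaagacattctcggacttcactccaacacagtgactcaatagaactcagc

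Cxcl1 and Cxcl2 each held a near-palindromic NF-κB match, found on both strands in overlapping positions, that began 71 and 97 bases before the start. Cxcl10 held 2 separate NF-κB matches, 159 and 103 bases before the start, and the response element 213 bases before it, and no match lay in the Cxcl9 window. RefSeq promoters were found for 36 of the 51 members. Of these, 9 held an NF-κB match (Ccl20, Ccl27a, Ccl9, Ccr3, Ccr6, Cxcl1, Cxcl10, Cxcl2 and Cxcl3) and 3 the response element (Ccl19, Cxcl10 and Cxcl14). Among all 32851 promoters, 4.51% and 3.44% held them. The 36 members had 40 promoters, so the counts of members and the shares of promoters differ in unit. A match is a run of letters and not a site shown to be bound.

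Between the sexes, 5 members were called in liver and all 5 were lower in males (3.83% of all genes were called and lower in males, 6.23% in either direction). They were the ligands Cxcl13, Cxcl16, Cxcl9 and Cxcl12 and the receptor Cxcr4. Cxcl13 ranged from 7.56 to 11.14 in the 12 females (median 9.33) and from 6.63 to 9.44 in the 12 males, a difference of -1.71 (SE 0.30, limma adjusted p = 0.000341, permutation p = 0.000181 in an exact test of sex within treatment). Of the males, 7 lay below every female.

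Cxcl9 ranged from 9.22 to 14.34 in females and from 8.01 to 10.17 in males, a difference of -1.56 (SE 0.37, adjusted p = 0.00724). Cxcl16 ranged from 7.86 to 9.27 in females and from 7.81 to 8.45 in males (-0.65, SE 0.12, adjusted p = 0.000556). Cxcr4, the receptor of Cxcl12, ranged from 5.84 to 6.59 in females and from 4.65 to 6.41 in males (-0.68, SE 0.16, adjusted p = 0.00635). For each of these and for Cxcl13, the male mean was below the female mean in all 3 treatment groups.

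Cxcl12 ranged from 14.10 to 15.14 in females and from 13.05 to 14.86 in males (-0.65, SE 0.17, adjusted p = 0.0147). Its means were 14.56 in vehicle females and 14.60 in vehicle males, 14.63 and 13.49 under risperidone, and 14.41 and 13.55 under olanzapine, with the interactions given above.

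Markers of liver macrophages moved with the same contrast. All 4 Kupffer cell genes (Clec4f, Vsig4, Timd4 and Cd5l), 6 of 7 macrophage genes and 2 of 5 endothelial genes were called lower in males. The mean of the Kupffer genes was 9.46 to 10.70 in females and 8.65 to 9.45 in males, without overlap, and that of the macrophage genes 9.04 to 10.08 and 8.29 to 8.90. The part of these cells in the differences of the 5 members was not tested.

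**Figure D4:**
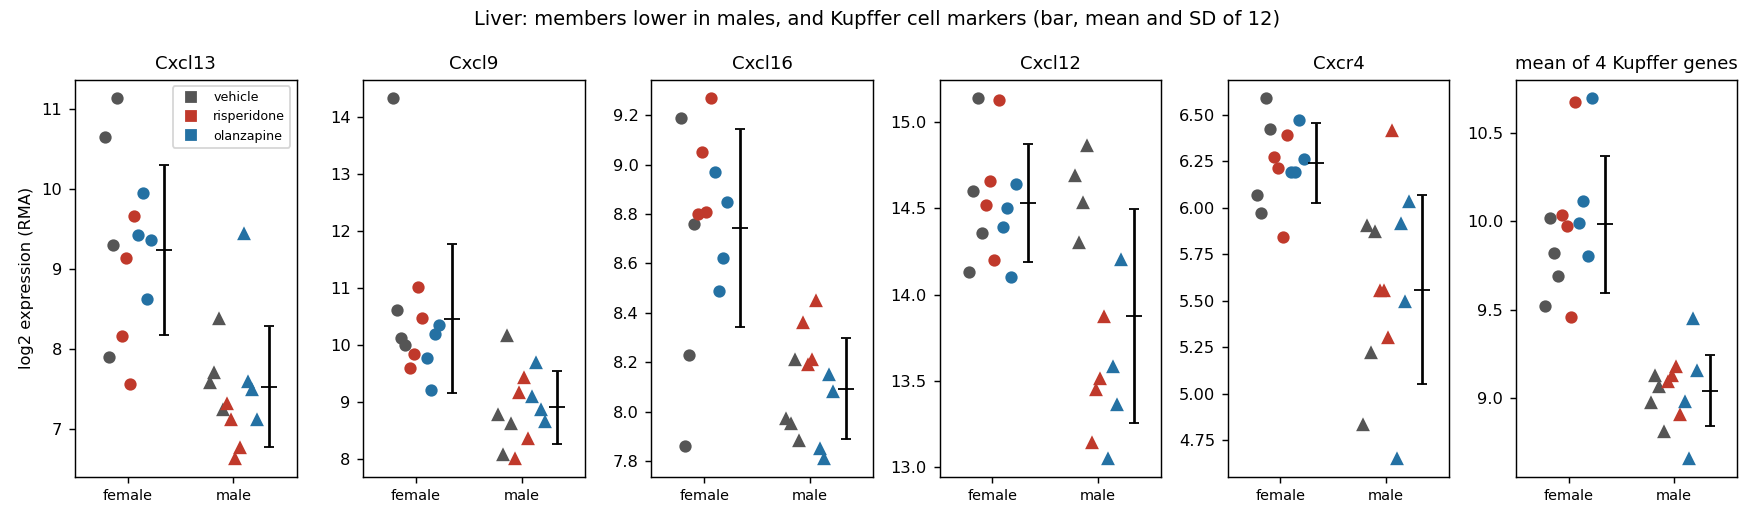
Log2 expression in liver of the 5 members called between the sexes and the mean of 4 Kupffer cell genes, with 1 symbol per mouse coloured by treatment (bars, mean and SD of 12 mice). The male mean is lower in every panel, and for Cxcl12 the vehicle males, at 14.30 to 14.86, lie within the female range.

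In adipose tissue, 2 members were called between the sexes (4.6% of all genes were). Ccl19, the stromal ligand of Ccr7, ranged from 6.55 to 7.94 in females and from 7.47 to 8.82 in males, a difference of 0.79 (SE 0.19, adjusted p = 0.0158), and 6 of 12 males lay above every female. Cxcl9 ranged from 9.20 to 12.91 in females and from 7.15 to 10.54 in males, a difference of -1.45 (SE 0.42, adjusted p = 0.0481). Without the 4 males that carried epididymis markers, Ccl19 differed by 0.94 (SE 0.21, adjusted p = 0.0109), while Cxcl9 differed by -0.92 (SE 0.46, adjusted p = 0.246). When single mice were left out, Cxcl9 missed the threshold in 16 of 24 fits, with adjusted p from 0.0255 to 0.0998 and a difference of -1.60 to -1.23. It passed only without vehicle F20, F21 or M19, risperidone F6 or M24, or olanzapine F9, M25 or M27.

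In the fit without those 4 males, 3 more ligands were called higher in males (4.84% of all genes were called there). These were Ccl21b at 1.10 (SE 0.24, adjusted p = 0.00875) and Ccl21c at 1.09 (SE 0.24, adjusted p = 0.00996), near-identical copies of a Ccr7 ligand that probes may not tell apart, and Ccl5 (RANTES), which attracts lymphocytes, with a difference of 0.66 (SE 0.19, adjusted p = 0.0492). No member was called between the sexes in striatum (0.39% of all genes) or pancreas (0.108%), and 7 and 2 members were at an unadjusted p under 0.05 in limma, against 7.01% and 4.25% of all genes.

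In pancreas, Cxcl13 had the largest spread of the members, with an SD of 3.05. It ranged from 6.85 to 15.75 in vehicle mice, from 7.73 to 16.94 under risperidone and from 6.98 to 14.74 under olanzapine. In the vehicle group 6 of 8 mice were at 12.42 or above, a level chosen after the values were seen, against 1 mouse in each drug group (F5 under risperidone, F7 under olanzapine), and all 3 groups overlapped. The difference from vehicle was -2.45 under risperidone (SE 1.41, adjusted p = 0.999, exact permutation p = 0.160) and -2.96 under olanzapine (SE 1.41, adjusted p = 0.603, exact permutation p = 0.0816). Ccl19 (SD 1.99) was at 14.02 in vehicle F20 and 13.00 in risperidone M4, the mice with high T cell genes, then at 10.57 in risperidone F5, and at most 8.99 in the other 21. Ccl21c (SD 1.67) was highest in the same 2 mice, at 11.78 and 12.84.

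The lowest-p members in pancreas were myeloid chemokines, together with Cxcr4 and Ccl1. Under risperidone, Ccl8, a monocyte attractant, ranged from 4.89 to 8.21 against 5.58 to 7.74 in vehicle mice, and 3 risperidone mice lay below all vehicle mice while F5 lay above them. Ccl6 ranged from 10.43 to 12.81 against 10.69 to 13.47 (-0.97, SE 0.39), and Cxcr4 and Ccl9, a macrophage chemokine, each differed by -0.59 (SE 0.32), all at an adjusted p of 0.999. Under olanzapine, Ccl9 differed by -0.84 (SE 0.32), Cxcr4 by -0.83 (SE 0.32), Ccl6 by -0.94 (SE 0.39) and Ccl1, the ligand of Ccr8, by 0.88 (SE 0.37), each at an adjusted p of 0.572. For Ccl1, olanzapine F26 was at 10.13 and the other 7 olanzapine mice between 7.07 and 8.53. Over the alternative fits described below, the olanzapine difference ran from -1.525 to -0.135 for Cxcr4 and from -1.40 to -0.25 for Ccl6. It ran from -1.05 to -0.65 for Ccl9 and from 0.56 to 1.16 for Ccl1. The interaction of sex and olanzapine for Cxcr4 was 1.39 (SE 0.60, limma adjusted p = 0.998). Without vehicle F20 and risperidone M4, 2 members under risperidone (2.72% of all genes) and 3 under olanzapine (5.5% of all genes) were at an unadjusted p under 0.05 in limma, and none passed the adjusted test.

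In striatum the member with the lowest p under risperidone was Cxcl13, which ranged from 6.16 to 7.29 in vehicle mice and from 5.74 to 6.38 under risperidone, a difference of -0.47 (SE 0.14, adjusted p = 0.892, exact permutation p = 0.0122). Ccl26, an eotaxin, differed by 0.36 (SE 0.16), Cxcl9 by 0.32 (SE 0.14) and Ccl22 by -0.29 (SE 0.14), each at an adjusted p of 0.913. For Cxcl9, 7 of 8 risperidone mice lay above every vehicle mouse, and F23 at 5.28 lay below them all. Under olanzapine, Cxcr2, the receptor of Cxcl1 and Cxcl2, ranged from 6.32 to 7.17 against 6.67 to 7.57 in vehicle mice (-0.43, SE 0.15, adjusted p = 0.295). Cxcl11 differed by -0.41 (SE 0.18, adjusted p = 0.402) and Ccr7 by -0.26 (SE 0.13, adjusted p = 0.512). Ccr2, the receptor of Ccl2, had means of 4.10 under olanzapine and 4.40 in vehicle mice (adjusted p = 0.407). Both means were below the array medians of 7.66 to 7.74.

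Between the drugs, no member was called in any tissue. The share of all genes called was 4.86% in striatum, 0.0564% in liver and 0.0% in pancreas and adipose tissue. In striatum 5 members were at an unadjusted p under 0.05 in limma, all lower under olanzapine, while 19.1% of all genes were at that level. The lowest adjusted p was that of striatal Cxcl9 (-0.44, SE 0.14, adjusted p = 0.0699). It passed without risperidone F23 (-0.56, adjusted p = 0.00649, 7.39% of all genes called) and without olanzapine M9 (-0.46, adjusted p = 0.0491, 9.56% of all genes called), and in the latter fit Ccl21a (-0.51, adjusted p = 0.0304) and Cxcr2 (-0.48, adjusted p = 0.0377) passed too. All 7 measured striatal identity genes and 2 of 5 choroid plexus genes were called lower under olanzapine than under risperidone. The mean of the identity genes was 12.3 to 15.3 under olanzapine and 15.3 to 16.4 under risperidone. That of the choroid plexus genes was 7.04 to 8.76 and 7.03 to 10.55. The part of either set of genes in these differences was not tested. Striatal Ccl27a, Ccl21b and Ccl21c had the largest spread there (SD 0.77, 0.66 and 0.65) and were highest in olanzapine M9, at 16.14, 10.29 and 10.48. Ccl27a overlaps the receptor gene Il11ra1 in the RefSeq annotation, and whether its probes also read that gene was not tested.

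Among 18 ligand and receptor pairs across the 24 mice of each tissue (72 correlations, after removal of group means), 2 passed at an adjusted p under 0.05. In adipose tissue Ccl21a and its receptor Ccr7, which guides naive T cells and dendritic cells, were positively correlated (r = 0.83, permutation p = 1e-05, adjusted p = 0.00072, with rho = 0.81 at the same values, where 1e-05 is the smallest p that 100000 permutations can give). The r was 0.94 in vehicle, 0.87 in risperidone and 0.65 in olanzapine mice. It was 0.80 without the 2 mice farthest from the median and 0.86 without the 4 males with epididymis markers. The part of variation shared by whole arrays in this correlation was not tested. In pancreas Ccl19 and Ccr7 were negatively correlated (r = -0.66, permutation p = 0.00132, adjusted p = 0.0475). However, rho was -0.47 (permutation p = 0.022, adjusted p = 0.240), and r was -0.31 without vehicle F20 and risperidone M4, so that the relation rests on those mice. The mean of Ccr7 in pancreas was 13.15 in vehicle, 12.88 in risperidone and 13.19 in olanzapine mice, against array medians of 6.69 to 6.90. Whether its probes also read other RNA was not tested.

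The next 3 pairs did not pass. They were Cxcl2 and Cxcr2 in adipose tissue (r = 0.57, permutation p = 0.00363, adjusted p = 0.0871, rho = 0.56, and r = 0.60 without the 4 males with epididymis markers), Cxcl12 and Cxcr4 in liver (r = 0.53, permutation p = 0.00732, adjusted p = 0.107, rho = 0.47) and Ccl1 and Ccr8 in adipose tissue (r = 0.53, permutation p = 0.00741, adjusted p = 0.107, rho = 0.52, and r = 0.49 without those males). The r of Ccl1 and Ccr8 was 0.76 in vehicle, 0.78 in risperidone and 0.06 in olanzapine mice, and the difference between groups was not tested.

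**Figure D5:**
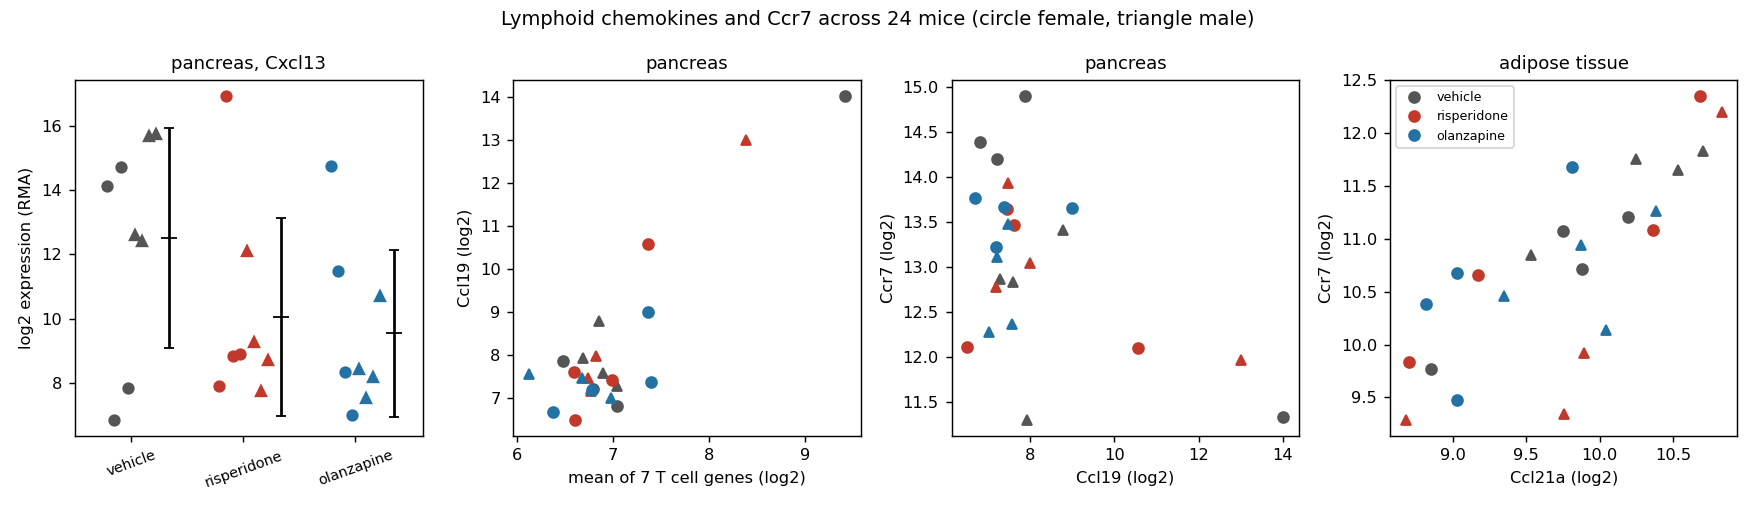
Log2 expression of Cxcl13 in pancreas by treatment (bars, mean and SD of 8 mice), and scatter plots over 24 mice of lymphoid ligands, Ccr7 and T cell genes in pancreas and adipose tissue. In pancreas, vehicle F20 and risperidone M4 lie far from the rest for Ccl19, at 14.02 and 13.00.

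Related genes outside the family were followed through 4 lists. The lists were chosen with earlier results of these data known, so the counts of called genes in them are not a test of a pathway. None of 11 further chemokines and receptors, such as Cx3cl1, Xcl1 and the atypical receptors Ackr1 to Ackr4, was called in any comparison. Of 18 measured genes that signal below chemokine receptors, 1 rose in liver under each drug, Rgs1, which speeds the switching off of G proteins (2.54 under risperidone, SE 0.26, and 1.48 under olanzapine, SE 0.26). Of 17 measured inducers and NF-κB or interferon pathway genes, 2 rose in liver under risperidone, the cytokine Il1b (1.82, SE 0.28) and the lipopolysaccharide receptor Cd14 (1.76, SE 0.25), and 0 under olanzapine. Over all genes in liver, 0.041% were called under risperidone and 0.0205% under olanzapine. Between the sexes in liver, 4 of the 18 signalling genes (Gnai2, Dock2, Arrb1 and Rgs1) were called lower in males, as were 3.83% of all genes. None of the 5 enzymes that cut chemokines was called under either drug.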

How the data were processed

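The 96 samples were hybridised to Clariom S mouse arrays (Affymetrix). The deposited values are log2 expression per transcript cluster, which the authors summarised by RMA in Affymetrix Expression Console 1.4 (submitters' processing notes). Joint or separate normalisation of the tissues was not stated in the sources used. Array values carry no read depth, so the number of mice limits the precision. Of 22206 clusters, 19572 had 1 gene symbol in the platform annotation, and clusters of a gene were averaged.

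Within each tissue, limma 3.58.1 (R 4.3.3) modelled the 24 mice by treatment plus sex, p-values were adjusted by the Benjamini-Hochberg method over all 19505 genes, and an adjusted p under 0.05 was a call. Exact two-sided permutation tests permuted treatment within sex (4900 arrangements, smallest p 0.000408) or sex within treatment (343000 arrangements). The limma step was tested on simulated data. Other tools were Python 3.11.15, numpy 2.4.6 and scipy 1.17.1. Samples were grouped by the labelled tissue, treatment and sex. Named were called members (up to 8 a comparison), the 4 members with the lowest p per drug and tissue, the 3 with the largest spread per tissue and the 5 strongest pairs. The members and lists were chosen with earlier results of these data known. Alternatives changed the sex term, the mice, the variance model, the filter, the scaling and a mouse number term. Leaving out the males with epididymis markers and the mice with high T cell markers was chosen after seeing the data.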

Additional observations from a re-analysis of the deposited data

Results flagged for a closer look

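In 123 groups of 8 mice, formed by the named members, 21 had a highest or lowest mouse far from the nearest other relative to the group's range (Dixon's criterion). For groups chosen without regard to their values, chance gives about 1 in 20, or 6.15 of 123. The named members were chosen partly for a large spread in these same values, so more flagged groups than that were to be expected. Members that vary together also share their extreme mice.

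In liver, vehicle F1 stood apart for Cxcl1 (14.14), Cxcl10 (10.78), Cxcl9 (14.34) and Ccl2 (8.88), with the next vehicle mouse at 9.39, 5.78, 10.62 and 6.10. Risperidone F6 stood apart for Ccl2 (10.41, next 7.23) and olanzapine M9 for Cxcl1 (13.39, next 6.87). Vehicle F1 also stood apart in adipose tissue, for Ccl6 (14.08, next 12.52) and Ccl8 (12.82, next 10.09). Olanzapine M9 stood apart in striatum as well, for Ccl27a (16.14, next 14.63), Ccl21b (10.29, next 8.73) and Ccl21c (10.48, next 8.91).

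In pancreas, vehicle F20 stood apart for Ccl19 (14.02, next 8.78) and Ccl21c (11.78, next 8.43). Olanzapine F7 was highest in its group for Ccl19 (8.99, next 7.57), and risperidone F5 for Ccl6 (12.81, next 11.50) and Ccl8 (8.21, next 6.15).

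In adipose tissue, olanzapine M25 was highest in its group for Cxcl13 (10.98, next 8.13) and olanzapine F26 for Ccl22 (7.81, next 7.17), and vehicle F2 was lowest for Ccr8 (6.14, next 6.76). In striatum, Ccr2 was highest at 4.71 in risperidone M4 (next 4.32) and at 4.53 in olanzapine F7 (next 4.18).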

How the results depend on the processing

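The 5 liver members called between the sexes were called in every alternative that tested them (30 each, 29 for Cxcr4, which a filter on genes above the median level removed), with adjusted p up to 0.0305. Adipose Ccl19 passed in all 31 alternatives and Cxcl9 in 12 of 31, with adjusted p up to 0.0354 and 0.246. The count of adipose members called between the sexes was 1 with quantile normalization and with mouse number above 18 as a term, 4 without the males with epididymis markers, and 1 to 5 when single mice were left out. Leaving out single mice moved the count between 0 and 3 for olanzapine against risperidone in striatum, and between 0 and 2 for the interaction of sex and risperidone in adipose tissue (Ccl7 and Ccr7, without risperidone M24, where 7.74% of all genes were called). The 8 comparisons of a drug with vehicle called 0 members in every alternative run. The liver difference of Cxcl12 under risperidone was 0.07 in females alone, the reverse of its direction in all mice. The cause of these changes was not tested. No paired analysis was possible because the treatment groups of a tissue share no mouse numbers.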

Other observations

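After the values were seen, 23 further correlations across the 24 mice of a tissue were computed, with group means removed, for members set against marker lists or each other. In adipose tissue Ccr7 followed the mean of 7 T cell genes (r = 0.83, rho = 0.81, permutation p = 1e-05 for both, the smallest possible), with r at 0.83 without the 4 males that carried epididymis markers and 0.81 without the 2 mice farthest from the median. Ccr7 also followed Cxcr2, the receptor of Cxcl1 and Cxcl2 (r = 0.77, rho = 0.80), so its relation was not particular to T cell genes. The T cell mean in adipose tissue lay between 6.28 (risperidone M5) and 7.23 (vehicle M3), below the array medians of 7.41 to 7.65. The mean of the Kupffer cell genes was 5.68 and 7.04 in the same mice. The part of variation shared by whole arrays in these correlations was not tested. Ccl6 followed the mean of 7 macrophage genes (r = 0.67, permutation p = 0.0003, adjusted p = 0.000575, rho = 0.70), and r was 0.68 without the farthest mice and 0.71 without the 4 males. Ccl11 followed Cxcl9 (r = 0.71, permutation p = 9e-05, adjusted p = 0.000207, rho = 0.78), and r was 0.64 and 0.70 in the same 2 subsets.

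In pancreas Ccl19 followed the T cell genes (r = 0.88, permutation p = 1e-05, rho = 0.72), and r was 0.66 without vehicle F20 and risperidone M4. Ccr7 was at r = -0.67 with the same T cell genes (permutation p = 0.00107, adjusted p = 0.00176, rho = -0.45), and at -0.29 without those mice. Cxcl13 followed the mean of 7 B cell genes (r = 0.66, permutation p = 0.00038, adjusted p = 0.000672, rho = 0.54), and r was 0.47 without the 2 farthest mice and 0.60 without vehicle F20 and risperidone M4. Cxcr5, the receptor of Cxcl13, was at r = -0.06 with the same B cell genes (permutation p = 0.788).

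In liver Cxcl13 was at r = -0.02 with the B cell genes (permutation p = 0.937, rho = -0.01) and at r = 0.72 with Ccl6 (permutation p = 9e-05, adjusted p = 0.000207, rho = 0.71), or 0.54 without the 2 farthest mice. In striatum Ccl27a followed Ccl21c (r = 0.92, permutation p = 1e-05, rho = 0.86), and r was 0.85 without the 2 farthest mice.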
